A study of Mus musculus with 48 samples.

Results

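The 10 genes described here carry out or control the first steps of steroid hormone synthesis: Star, Cyp11a1, Hsd3b1, Hsd3b6, Cyp17a1, Lhcgr, Scarb1, Fdx1, Fdxr and Por. They were taken by symbol, and in the single-cell table by Ensembl identifier. No measured value entered that rule, though earlier results of these data were known when the genes were chosen. All 10 were found among the 22173 genes counted in gonadal somatic cells of the mouse stages and among the 32285 genes of the 10x table. The FPKM table of the cultures listed 8 of them among its 13682 genes, while Cyp17a1 and Lhcgr were not listed there.

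Every sample carried the C57BL/6 background. Somatic cells were separated from female gonads at E12.5, E13.5 and E16.5 (embryonic days) and from ovaries at P6w, 6 weeks after birth, with 2 libraries per stage. In a second experiment, 3 libraries of somatic cells from E12.5 female gonads (E12.5_GC) were set beside embryonic stem cells (ESCs) induced with V580 for 4, 6, 8 or 10 days (V580_D4 to V580_D10, 3 libraries each). V580 is the combination of vitamin C (Vc) and AM580, an agonist of retinoic acid receptor alpha, and the induced cells were named gonadal somatic cell-like cells (GSCLCs). ESCs without either molecule (Con) or given Vc, AM580 or V580 were collected at 24 h and 48 h, with 2 libraries per group. The labels give 1 sample of V580_D6 cells profiled by 10x single-cell RNA-seq. The study's text speaks of repeat runs and counts as GSCLCs the cells left after SSEA1-positive cells are removed, but whether the deposited table pools runs or holds cells so depleted is not given in the labels, and it was treated as 1 sample. For E12.5 the study's methods describe somatic cells as those that passed a magnetic column binding SSEA1, a surface marker of germ cells, so they were a mixture of the other cells of the gonad. The ESC lines, described as female, were made by the authors.

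All steroid hormones are made from cholesterol. Scarb1 encodes a lipoprotein receptor that brings cholesterol esters into the cell and Star the protein that carries cholesterol to the inner mitochondrial membrane, where CYP11A1, fed with electrons by ferredoxin (Fdx1) and ferredoxin reductase (Fdxr), cuts its side chain to give pregnenolone. The 3 beta-hydroxysteroid dehydrogenases (Hsd3b1, Hsd3b6) turn pregnenolone into progesterone, and CYP17A1, fed by cytochrome P450 reductase (Por), opens the way to androgens. In the adult ovary theca cells make androgens under luteinizing hormone, which acts through Lhcgr, granulosa cells turn them into estrogens, and luteal cells make progesterone, whereas fetal steroid synthesis in mice is best known from Leydig cells of the testis and from the adrenal cortex.

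Hsd3b1 and Hsd3b6 are near copies that lie side by side on chromosome 3 (GRCm38), Hsd3b1 at chr3:98852194-98859794 and Hsd3b6 at chr3:98805504-98814443, both on the minus strand. Their coding sequences in GENCODE (GRCm38.p6) are 1122 bases each and were identical at 90.0% of positions, with 112 differences. The longest identical run was 72 bases, and 38 windows of 50 bases in Hsd3b6 were also found in Hsd3b1. Reads that fall in such runs can be given to either gene, so levels of the lower gene of the pair are uncertain where the other is very high. A stretch of 120 bases at the start of the last coding exon, shown because it is where their reads are told apart or not, had 11 differing bases, given in capitals.
Hsd3b1, chr3:98853244-98853363, minus strand: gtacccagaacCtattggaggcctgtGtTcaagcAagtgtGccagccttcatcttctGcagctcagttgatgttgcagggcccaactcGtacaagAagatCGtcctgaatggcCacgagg
Hsd3b6, chr3:98806552-98806671, minus strand: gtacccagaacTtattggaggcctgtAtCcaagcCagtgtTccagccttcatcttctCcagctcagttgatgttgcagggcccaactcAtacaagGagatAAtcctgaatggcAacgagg

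The 250 bases before their RefSeq start sites held 36.4% and 47.2% of G or C. They are shown because these near copies moved apart between the stages.
Hsd3b1, chr3:98859795-98860044, minus strand: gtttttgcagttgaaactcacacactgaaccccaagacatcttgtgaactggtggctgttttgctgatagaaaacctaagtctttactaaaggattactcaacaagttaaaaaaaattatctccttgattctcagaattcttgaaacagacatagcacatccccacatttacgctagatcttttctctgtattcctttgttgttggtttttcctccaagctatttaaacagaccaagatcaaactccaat
Hsd3b6, chr3:98814444-98814693, minus strand: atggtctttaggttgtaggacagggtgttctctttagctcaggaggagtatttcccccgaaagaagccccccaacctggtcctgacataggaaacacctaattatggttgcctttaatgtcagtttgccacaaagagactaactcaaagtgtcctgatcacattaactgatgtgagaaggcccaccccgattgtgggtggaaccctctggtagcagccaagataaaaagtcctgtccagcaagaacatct
The letters AAGGTCA (the core that SF-1 is known to bind), TATAAA and CCGCCC were searched on both strands. No copy of any of the 3 was in these 2 windows, and among all 32851 RefSeq promoter windows of that length 4.08%, 12.4% and 32.7% held them. The window of Lhcgr, the luteinizing hormone receptor, held 4 copies of CCGCCC, here in capitals as GGGCGG on the strand of the gene.
Lhcgr, chr17:88792015-88792264, minus strand: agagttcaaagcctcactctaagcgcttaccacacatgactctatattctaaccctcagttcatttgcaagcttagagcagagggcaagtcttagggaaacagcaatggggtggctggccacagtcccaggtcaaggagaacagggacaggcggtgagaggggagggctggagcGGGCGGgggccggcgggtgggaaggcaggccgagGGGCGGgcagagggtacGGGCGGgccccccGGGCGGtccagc
The window of Fdxr had 3 copies and that of Fdx1 had 1, and neither AAGGTCA nor TATAAA was in the windows of these 3 genes. The window of Fdxr, chr11:115276970-115277219, reaches into the gene, whose GENCODE start is at chr11:115277050 on the minus strand. Those of Lhcgr and Fdx1 lie just upstream of the GENCODE start. The windows that the table holds for Cyp11a1 and Por lie far from the GENCODE start of the gene and were left aside. For Star, Cyp17a1 and Scarb1 it holds no window, so these were not searched.

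The stage libraries held 12694769 to 22259044 counts. The labels mark the E12.5, E13.5 and E16.5_1 libraries L5 and the E16.5_2 and P6w libraries L1, so that P6w and E12.5 share no mark, and their stage and mark cannot be told apart. The summed level of 4 Y-linked genes was 9.50 and 8.40 CPM (the count scaled to library size, with TMM normalization) in the E12.5 libraries and at most 0.254 CPM in the others, although the gonads are labelled female, and Cst9, a gene of Sertoli cells, had 1273 and 1195 counts at E12.5. Liver genes summed to 117 and 111 CPM at E13.5 against 2.18 and 1.73 CPM at E12.5, and erythroid genes to 15720 and 14000 CPM against 3585 and 3206 CPM. Granulosa genes summed to 35700 and 35900 CPM at P6w against 127 to 270 CPM in the fetal libraries, and theca and luteal genes to 745 and 758 CPM against 9.49 to 40.04 CPM. Cyp11b1 and Cyp21a1, which define the adrenal cortex, did not exceed 4 counts in any stage library. The whole adrenal list of 5 genes summed to 20.9 and 17.5 CPM at E12.5, 30.6 and 29.9 CPM at E13.5, 21.5 and 22.4 CPM on E16.5 and 37.7 and 44.8 CPM at P6w. Of its 3 tested genes 2, Mrap (log2 fold change 2.23) and Akr1b7 (1.55), were higher at E13.5 than at E12.5, the step at which Hsd3b1, Cyp17a1, Lhcgr and Fdxr were higher. The third, Mc2r, was not called at that step, with 16.77 and 12.75 CPM at E12.5 and 11.43 and 12.26 CPM at E13.5. The part of these other cells in the results was not tested.

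The adult ovary cells had far more RNA of Cyp11a1, Hsd3b1, Cyp17a1 and Lhcgr than any fetal stage, while the electron carriers and Star differed less and Hsd3b6, at a mean of 63.9 CPM at E12.5 and 27.6 CPM at P6w, was not higher than at E12.5. From E12.5 to P6w, 8 of the 10 genes were higher, 0 were lower and Hsd3b6 and Por did not pass (edgeR quasi-likelihood test, Benjamini-Hochberg adjusted over 16398 genes). Of all genes tested, 52.9% were called in that comparison, 25.4% higher and 27.5% lower. The median log2 fold change of the 10 genes was 2.55 against -0.04 over all genes. In cells taken in bulk, fewer cells of a type and less RNA per cell cannot be told apart.

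**Figure D1:**
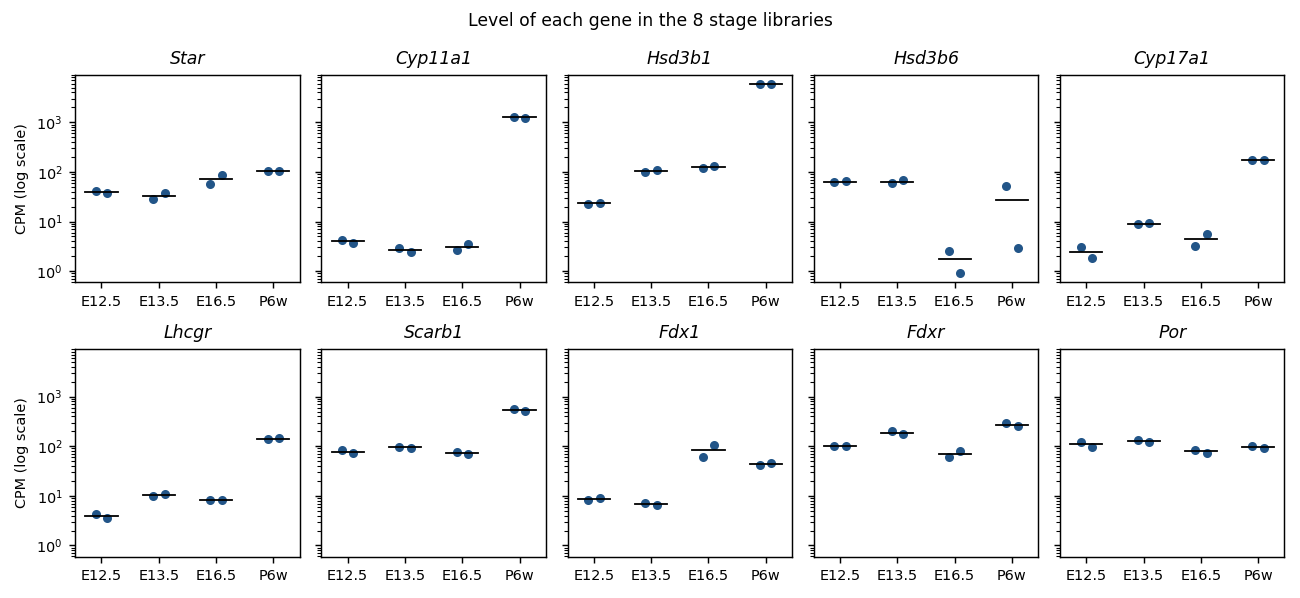
CPM on a log scale (y axis) of each gene in the 8 stage libraries (x axis, 2 per stage), with a bar at the mean of the stage. Cyp11a1, Hsd3b1, Cyp17a1, Lhcgr and Scarb1 stand apart at P6w, Fdx1 is highest at E16.5, and the P6w libraries of Hsd3b6 lie far from each other.

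Cyp11a1 (chr9:58006411-58027023), which makes pregnenolone and is the enzyme that commits a cell to steroid synthesis, was low in the fetal libraries. Its counts were 90 and 76 at E12.5, 58 and 42 at E13.5, 63 and 57 on E16.5, and 15773 and 14551 at P6w. In CPM these were 4.17 and 3.75, then 2.95 and 2.40, then 2.73 and 3.49, and at last 1289 and 1211. The P6w libraries were thus far above all 6 fetal ones, and E13.5 and E16.5 overlapped. The level at P6w was 315-fold that at E12.5 (log2 fold change 8.30, SE 0.172) and 407-fold that at E16.5 (8.67, SE 0.177, adjusted p 5.86e-14). Cyp11a1 shares 145 exon bases with the noncoding gene Gm17322 on the same strand. The small drop from E12.5 to E13.5 (-0.56, SE 0.191, adjusted p 0.0251) was lost with only those stages fitted (adjusted p 0.106), with the trend on gene length removed (0.0601), and without the E12.5_1 (-0.49), E12.5_2 (-0.64) or E13.5_2 library (-0.41).

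Hsd3b1 rose at each step. Its CPM were 22.7 and 23.6 at E12.5, 97.5 and 107 at E13.5, 118 and 134 on E16.5 and 5909 and 5872 at P6w, with no overlap between any stages. It was 4.41-fold higher at E13.5 than at E12.5 (log2 fold change 2.14, SE 0.127, adjusted p 8.05e-08) and 46.7-fold higher at P6w than at E16.5 (5.55, SE 0.142, adjusted p 3.35e-13). The step from E13.5 to E16.5 was small (0.30, SE 0.119, adjusted p 0.0439). It did not pass with only those stages fitted (0.28, adjusted p 0.124) or without E13.5_1 (0.22), E13.5_2 (0.35) or E16.5_2 (0.21). Per kilobase of exon, Hsd3b1 had the highest level of the 10 genes at P6w (3176 CPM per kilobase), with Cyp11a1 next (260) and Fdx1 last (13.9).

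Hsd3b6 went the other way among the fetal stages. It had 1338 and 1331 counts at E12.5, 1172 and 1189 at E13.5, and 59 and 15 at E16.5, or 62.0 and 65.8, 59.5 and 67.8, and 2.55 and 0.918 CPM. E12.5 and E13.5 overlapped and differed by a log2 fold change of -0.00 (SE 0.599). E16.5 was 34.6-fold lower than E13.5 (-5.11, SE 0.807, adjusted p 8.94e-05), while Hsd3b1 did not fall there. At P6w the replicates disagreed, with 640 and 35 counts (52.3 and 2.91 CPM). No other of the 7529 genes with at least 20 CPM at P6w had replicates as far apart, 3.77 on the log2 scale, and the next were Padi6 (1.65), Zp3 (1.35), H1foo (1.34) and Gdf9 (1.30), all genes of oocytes. Gdf9 had 652 and 253 counts and Zp3 687 and 258 in these libraries, and Amh, which granulosa cells of small follicles make, had 1923 and 817. The summed level of the germ cell list was 114.9 and 48.4 CPM. Their part in the Hsd3b6 level was not tested, and a share of the reads from the near copy Hsd3b1, at 72335 and 70552 counts there, cannot be told apart from Hsd3b6 itself in the lower library. The rise from E16.5 to P6w (3.91, SE 0.813, adjusted p 0.000817) shrank to 0.65 without P6w_1 (adjusted p 0.270), and the difference from E12.5 (-1.21, adjusted p 0.119) became -4.46 (adjusted p 2.76e-06).

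Cyp17a1, which makes androgens, and Lhcgr had the same order of stages. Cyp17a1 had 3.01 and 1.83 CPM at E12.5, 8.74 and 9.24 at E13.5, 3.25 and 5.51 on E16.5 and 175 and 173 at P6w. Lhcgr had 4.22 and 3.51, 9.91 and 10.8, 8.31 and 8.38, and 139 and 147 CPM. Neither gene had overlapping stages. From E12.5 to E13.5 both were higher, Cyp17a1 by 1.88 (SE 0.247, adjusted p 3.37e-05) and Lhcgr by 1.42 (SE 0.170, adjusted p 1.77e-05) on the log2 scale. Cyp17a1 was then lower at E16.5 (-1.07, SE 0.232, adjusted p 0.00127), whereas Lhcgr did not pass (-0.31, SE 0.159), except with the trend on gene length removed (-0.61, adjusted p 0.00475). At P6w they were 40.6-fold and 17.1-fold the level of E16.5, and 71.3-fold and 36.8-fold that of E12.5.

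The genes of cholesterol supply were measured at 560 to 6988 counts in every stage library. Star had 40.9 and 37.8 CPM at E12.5, 28.5 and 38.3 at E13.5, 55.8 and 88.0 on E16.5 and 105 and 102 at P6w. Its rise from E13.5 to E16.5 was 2.15-fold (log2 fold change 1.11, SE 0.191, adjusted p 0.000199). The further step to P6w (0.53, adjusted p 0.0253) was lost without E16.5_1 (0.23), P6w_1 (0.50) or P6w_2 (0.54). Star was thus within 2.63-fold of its E12.5 level at P6w, where Cyp11a1 was at 315-fold. Scarb1 had 83.5 and 71.6 CPM at E12.5, 98.6 and 90.6 at E13.5, 77.9 and 70.6 on E16.5, and 571 and 512 at P6w, so that only P6w stood well apart. It was 7.29-fold higher at P6w than at E16.5 (2.87, SE 0.131). Its differences among the fetal stages were small, 0.29 from E12.5 to E13.5 (adjusted p 0.0709) and -0.35 from E13.5 to E16.5 (adjusted p 0.0270). The first passed with only those stages fitted (0.25, adjusted p 0.0332) and with the length trend removed (0.75, adjusted p 0.000302), and the second did not pass without E13.5_1 (-0.30), E13.5_2 (-0.42) or E16.5_2 (-0.27).

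The electron carriers did not move together. Fdx1 had 8.34 and 9.24 CPM at E12.5, 7.26 and 6.50 at E13.5, 61.3 and 107 on E16.5 and 41.3 and 45.1 at P6w. It was 12.2-fold higher at E16.5 than at E13.5 (log2 fold change 3.61, SE 0.236, adjusted p 4.51e-08) and lower again at P6w (-0.96, SE 0.208, adjusted p 0.00110). Its partner Fdxr had 98.9 and 98.7, 198 and 178, 60.7 and 79.1, and 291 and 250 CPM, and so was lowest where Fdx1 was highest. Fdxr was higher at E13.5 (0.93, SE 0.138), lower at E16.5 (-1.43, SE 0.140, adjusted p 1.37e-06) and higher at P6w (1.96, SE 0.142). Por, which serves many P450 enzymes besides CYP17A1, ranged from 73.2 to 136 CPM over all 8 libraries. It was lower at E16.5 than at E13.5 (-0.71, SE 0.140, adjusted p 0.000604) and did not pass in the other comparisons (0.21, 0.29 and -0.21), though its step from E16.5 to P6w passed without E16.5_1 (0.39, adjusted p 0.0234).

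**Figure D2:**
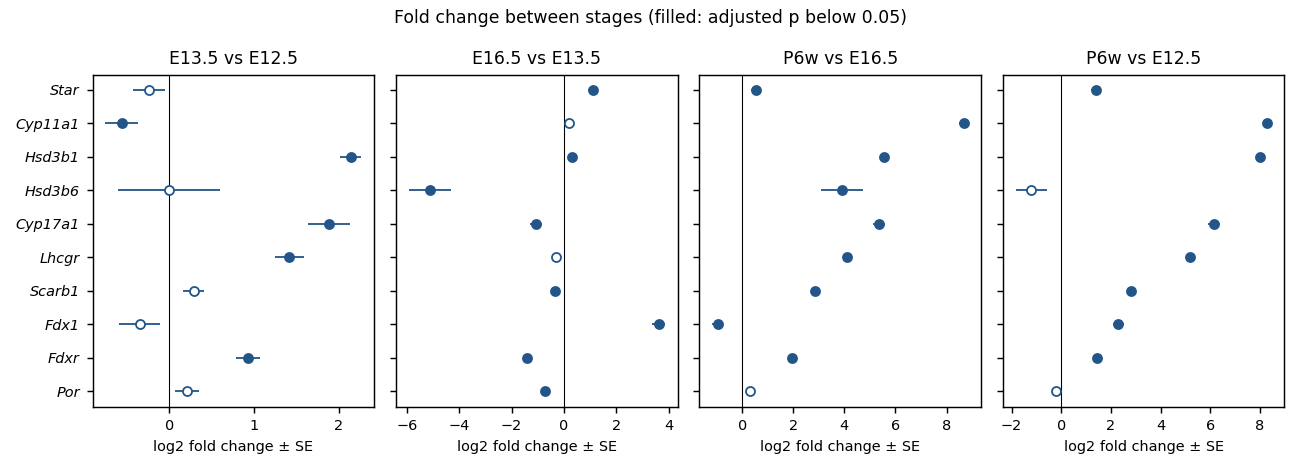
Log2 fold change (x axis) with its standard error for each gene in 4 comparisons of stages; filled points have an adjusted p below 0.05 in edgeR. Hsd3b6 and Fdx1 move most from E13.5 to E16.5, at -5.11 and 3.61, and Cyp11a1, Hsd3b1, Cyp17a1 and Lhcgr at P6w.

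From E12.5 to E13.5, 4 of the 10 genes were higher and 1 lower, where 23.8% and 22.1% of all genes were. From E13.5 to E16.5, 3 were higher and 5 lower, against 28.7% and 25.4%, and from E16.5 to P6w 8 were higher and 1 lower, against 26.3% and 29.8%. The shares of the fetal steps, 5 and 8 of 10 in either direction, stood beside 45.9% and 54.1% of all genes. With a limit of 2-fold added, 3 and 5 were called in the fetal steps, where 17.0% and 26.1% of all genes were. Within the L5 libraries, which leaves out E16.5_2, the fold changes at E16.5 against E13.5 were 3.16 for Fdx1, -4.63 for Hsd3b6, -1.63 for Fdxr, -1.46 for Cyp17a1 and 0.75 for Star. Within the L1 libraries, which leaves out E16.5_1, those at P6w against E16.5 were 8.48 for Cyp11a1, 5.45 for Hsd3b1, 4.98 for Cyp17a1, 4.90 for Hsd3b6, 4.09 for Lhcgr, 2.94 for Scarb1, 1.77 for Fdxr and -1.31 for Fdx1.

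Which other genes followed these was read from the Pearson correlation of log2(CPM + 1) over the 8 libraries, among 11014 tested genes with a stage mean of at least 10 CPM. For Cyp11a1 the closest were Apoa4, Zpld1 and Mafa (r at least 0.999), and 76 genes reached 0.99. For Hsd3b1 they were Ephx1, Itm2b and Slc38a5 (0.996 to 0.997) and for Lhcgr Dnase1l3, Derl3 and Acsbg1 (0.997 to 0.998). Fdx1 ran closest to Abhd2, B4galt1 and Ccnd2 (0.991 to 0.996), and Fdxr to Fdps, Sirt4 and Wdr4 (0.989 to 0.993), of which Fdps is an enzyme of cholesterol synthesis. Star ran closest to Msmo1, also of cholesterol synthesis, Ube2h and Vnn1 (0.983 to 0.9903). The values for Scarb1 were led by ND2 (0.998), for Cyp17a1 by COX3 (0.997), for Hsd3b6 by Prpf6 (0.961) and for Por by Rab24 (0.963). The 8 points come from 4 stages, so a high r says mainly that the stage means have the same order and spacing.

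The rest of the pathway at P6w was taken from gene lists, to be read beside the 25.4% of all genes that were higher and the 27.5% that were lower. Of 17 tested genes for other steroid enzymes, 11 were higher, 2 lower and 4 not called against E12.5. Hsd17b1, which completes estradiol, went from 0.664 (SD 0.240) to 745 CPM (SD 10.7) and Cyp19a1, the aromatase of granulosa cells, from 0.397 (SD 0.422) to 311 CPM (SD 8.85). Akr1c14 was also higher (log2 fold change 4.47, SE 0.220). The testicular enzyme Hsd17b3 (-2.01, SE 0.651) and Hsd17b11 (-1.91, SE 0.179) were lower. Of 4 electron partners 1 was higher, Cyb5a, which helps the lyase step of CYP17A1, from 211 to 1048 CPM (2.32, SE 0.133). Among 12 genes of cholesterol delivery 5 were higher, Lipe (0.90) and Soat1 (0.86) among them, and 2 lower, Stard5 (-1.19) and Stard4 (-0.71).

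Of 16 regulators, 3 were higher at P6w than at E12.5 and 7 lower, beside the same 25.4% and 27.5% of all genes. Nr5a2, an orphan receptor close to SF-1, went from 0.522 (SD 0.179) to 335 CPM (SD 17.6; log2 fold change 9.30), Foxl2 rose by 1.78 and Nr5a1, which encodes SF-1, by 0.63 from 208 to 321 CPM. Wt1 (-4.05) and Nr2f2 (-1.52) were among the lower. Of 17 genes of hormone signalling 11 were higher, Fshr (0.0247 to 104 CPM) and Esr2 (8.34) among them, and 3 lower, Mc2r (-6.12), the receptor for adrenocorticotropic hormone, Pde4b (-1.88) and Gnas (-1.03). Mc2r had 362 and 258 counts at E12.5, 225 and 215 at E13.5, 144 and 108 on E16.5 and 3 and 2 at P6w.

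From E12.5 to E13.5, where 23.8% of all genes were higher and 22.1% lower, the other steroid enzymes had 4 higher and 4 lower of 17, the electron partners 3 and 0 of 4, cholesterol delivery 3 and 5 of 12, the regulators 1 and 10 of 16 and hormone signalling 2 and 2 of 17. From E13.5 to E16.5, where 28.7% were higher and 25.4% lower, the numbers were 7 and 5, 0 and 4, 5 and 5, 8 and 3, and 9 and 1. Across genes, fold changes followed exon length in these fetal steps (Spearman rho -0.494 and 0.335). The part of that trend in the list numbers was not tested.

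The cultures asked a different question, namely whether the induced cells had the levels of these genes found in E12.5_GC cells. The V580 cultures had little or no RNA of the enzymes at any day, less Fdxr, and levels of Scarb1 near those of E12.5_GC. Por was higher at the adjusted p on days 4, 8 and 10 (log2 fold change 0.36, 0.79 and 1.81), past 2-fold only on day 10. Depth, estimated from the steps between low FPKM values (fragment counts scaled to transcript length and depth), was 16400000 to 28300000 fragments per library. Of the 8 listed genes 7 passed the filter of 1 FPKM in 3 libraries and were tested with limma on log2(FPKM + 1), a scale that understates the change of low genes. Hsd3b1 and Hsd3b6 passed it only through the E12.5_GC libraries and so had to differ, which makes their tests no support for a difference.

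**Figure D3:**
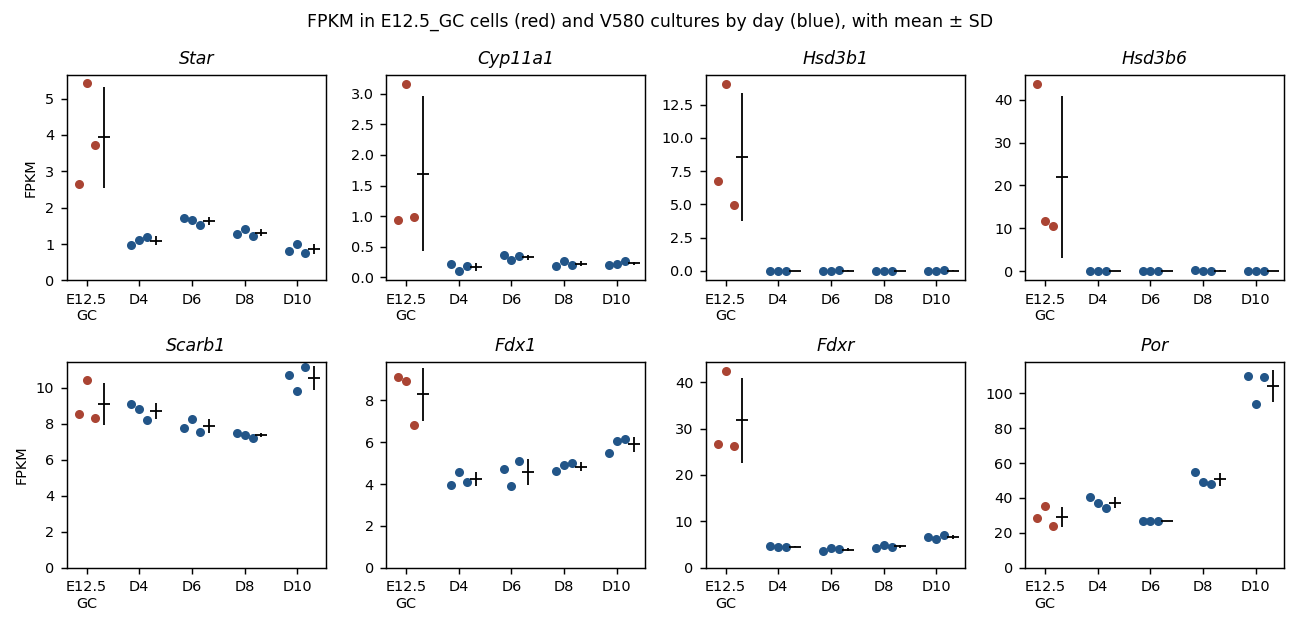
FPKM (y axis, linear) of the 8 listed genes in the 3 E12.5_GC libraries (red) and in V580 cultures on days 4, 6, 8 and 10 (blue, 3 libraries each), with mean and SD beside the points. Hsd3b1 and Hsd3b6 lie at or near 0 on every day, and Por is highest on day 10.

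Hsd3b1 was at 6.79, 14.0 and 4.93 FPKM in the E12.5_GC libraries. In the 12 V580 cultures it was listed at 0 in 9 and reached at most 0.0518 FPKM. Hsd3b6 was at 43.7, 11.6 and 10.5 FPKM in E12.5_GC and at most 0.159 FPKM in the cultures, with all 3 V580_D10 libraries at 0. The E12.5_GC_1 library, the highest for Hsd3b6, also had 4435 FPKM of erythroid genes in sum, against 1693 and 1038 in the others, and the part of these cells was not tested. The log2 fold changes were -3.11 to -3.15 for Hsd3b1 and -4.13 to -4.22 for Hsd3b6 over the 4 days.

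Cyp11a1 was at 0.944, 3.16 and 0.978 FPKM in E12.5_GC and below the filter in the cultures. Its values were 0.210, 0.101 and 0.191 on day 4, 0.356, 0.281 and 0.340 on day 6, 0.187, 0.272 and 0.208 on day 8 and 0.206, 0.213 and 0.260 on day 10. All 12 cultures lay below the lowest E12.5_GC library, with day 6 above the other days. The E12.5_GC_2 library, the highest for Cyp11a1, Hsd3b1, Star, Fdxr, Por and Scarb1, was also the only one with Cyp11b1 (1.46 FPKM against 0 and 0) and had the highest Mrap (2.70 against 1.48 and 1.00), both genes of the adrenal cortex. The summed level of the adrenal list was 4.15 FPKM there and 1.48 and 1.00 in the others, and its part in these levels was not tested.

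Fdxr was lower in every culture than in the gonad. It was at 26.7, 42.5 and 26.3 FPKM in E12.5_GC and at 3.54 to 7.07 in the 12 cultures. The groups were far apart, with log2 fold changes of -2.53, -2.72, -2.52 and -2.06 on days 4, 6, 8 and 10 (SE 0.134, adjusted p 1.69e-10 on day 6). Its partner Fdx1 was at 9.12, 8.91 and 6.84 FPKM in E12.5_GC and 3.90 to 6.16 in the cultures. That difference passed the adjusted p each day but was under 2-fold, from -0.82 on day 4 (adjusted p 3.46e-06) to -0.42 on day 10 (adjusted p 0.00190).

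Star was at 2.66, 5.42 and 3.71 FPKM in E12.5_GC. It was at 0.972, 1.10 and 1.21 on day 4, 1.72, 1.67 and 1.52 on day 6, 1.28, 1.42 and 1.23 on day 8 and 0.797, 1.01 and 0.759 on day 10. No culture reached the lowest E12.5_GC library, and day 6 lay closest. The fold changes were -1.20, -0.87, -1.06 and -1.37 (SE 0.141), of which that of day 6 was under 2-fold. Without E12.5_GC_2 those of day 4 (-0.99) and day 8 (-0.85) were under 2-fold too, and without E12.5_GC_1 that of day 6 passed it (-1.06).

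Por rose with the days of culture after day 6. Por was at 28.3, 35.2 and 24.1 FPKM in E12.5_GC, 40.5, 37.2 and 34.3 on day 4, 26.7, 26.9 and 26.5 on day 6, 54.8, 49.0 and 48.05 on day 8 and 109.9, 93.6 and 109 on day 10. It was 3.52-fold higher on day 10 than in E12.5_GC (log2 fold change 1.81, SE 0.112, adjusted p 1.86e-09) and 2.75-fold higher than on day 4 (1.46, adjusted p 3.07e-08). Scarb1 was at 8.54, 10.4 and 8.31 FPKM in E12.5_GC and 7.23 to 11.1 in the cultures, with log2 fold changes between -0.27 (day 8, adjusted p 0.00813) and 0.20 (day 10, adjusted p 0.0353), each under 2-fold.

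At the limit of 2-fold, 20.4%, 15.2%, 13.0% and 16.4% of 11512 genes were called on days 4, 6, 8 and 10. Leaving aside Hsd3b1 and Hsd3b6, 2, 1, 2 and 2 of the other 5 tested members were lower on days 4, 6, 8 and 10, where 11.3%, 8.11%, 6.07% and 7.23% of genes were. Por was the 1 gene higher, on day 10, where 9.16% were. The 4 comparisons share the E12.5_GC libraries, and V580_D10 against V580_D4, which does not use them, had 1 member higher, where 8.76% of genes were higher and 12.3% called in all. Without the limit of 2-fold, 4, 3, 5 and 5 of these 5 members passed on the 4 days and 4 from day 4 to day 10, beside 71.6%, 67.0%, 63.2%, 69.5% and 64.5% of genes. Leaving out any E12.5_GC library took Hsd3b1 and Hsd3b6 below the filter. Without E12.5_GC_1, E12.5_GC_2 or E12.5_GC_3 the members called were 1 to 2 on day 4, 1 to 2 on day 6, 1 to 2 on day 8 and 3 on day 10.

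The lists around the pathway showed which upstream genes were in these cells. Nr5a1, encoding SF-1, which drives most genes of steroid synthesis, was at 78.2 FPKM (SD 14.8, n = 3) in E12.5_GC and at 0.0377 (SD 0.0393, n = 3) in V580_D6. Gata4 was at 144 FPKM (SD 7.38) and 17.0 (SD 0.908). Of 14 regulators tested on day 6, 8 were lower, where 8.11% of all genes were, and 1, Nr2f2, higher (1.37). The 8 include genes such as Nr5a1 and Lhx9 that passed the filter only through E12.5_GC and so had to be lower, as had Mrap. Of 8 other steroid enzymes 2 were lower, Akr1c14 (-3.08) and Hsd17b11 (-3.04). Cyb5a was lower (-1.42), as were Tspo (-1.89) and Soat1 (-1.05). Among 11 genes of hormone signalling 3 were lower, Pde8a (-2.31), Prkar2b (-1.94) and Mrap (-1.37). From day 4 to day 10, 7 of the 14 regulators were higher, where 8.76% of all genes were, and 0 lower, Gata4 from 4.94 to 46.2 FPKM among them, and Nr5a1 was not called.

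In the first 2 days, Cyp11a1 and Por were higher with AM580 and with V580, each by less than 2-fold on the log2(FPKM + 1) scale. Vc, a vitamin and antioxidant, and AM580, a synthetic retinoid, are unrelated in structure, and each was compared with Con of its own time, while V580 was compared also with AM580.

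**Figure D4:**
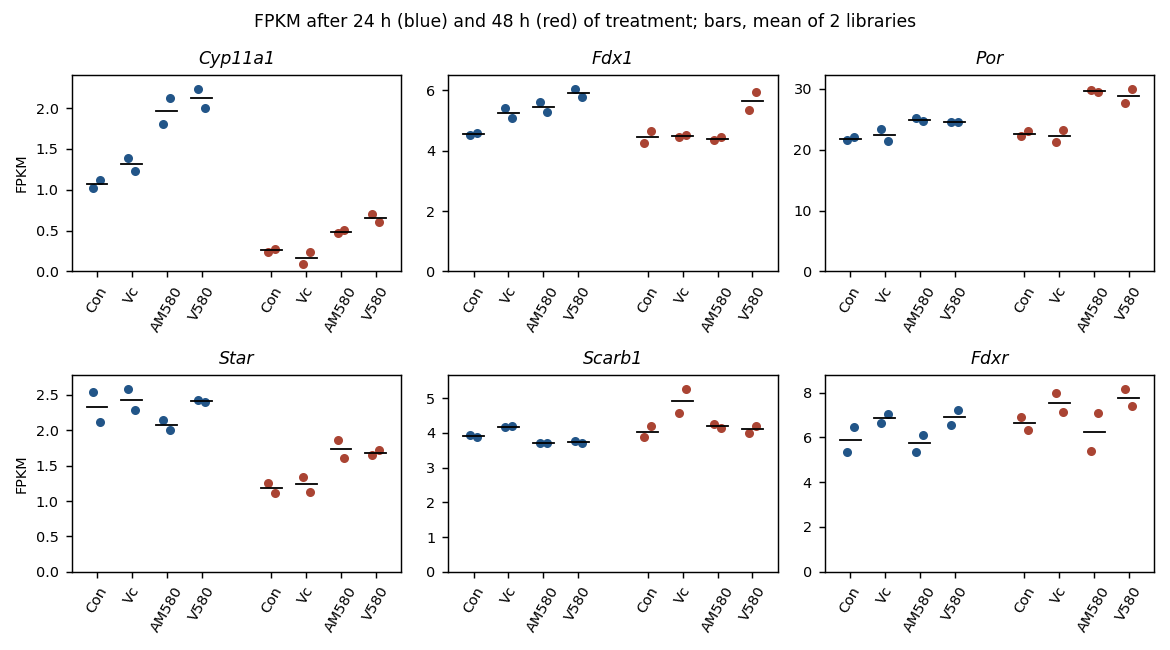
FPKM (y axis, linear) of the 6 tested genes in Con, Vc, AM580 and V580 at 24 h (blue) and 48 h (red), 2 libraries per group with a bar at the mean. Cyp11a1 is higher with AM580 and V580 at both times and lower at 48 h than at 24 h in every group.

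Cyp11a1 was at 1.03 and 1.12 FPKM in Con at 24 h, 1.39 and 1.23 with Vc, 1.81 and 2.13 with AM580 and 2.23 and 2.00 with V580. At 48 h it was at 0.241 and 0.277, 0.0965 and 0.239, 0.466 and 0.505, and 0.708 and 0.604 FPKM. The AM580 and V580 libraries lay above those of Con and Vc at both times. The log2 fold changes against Con were 0.52 for AM580 (SE 0.0791, adjusted p 0.000373) and 0.59 for V580 (adjusted p 5.78e-05) at 24 h, and 0.24 (adjusted p 0.0182) and 0.39 (adjusted p 0.000654) at 48 h. With a pseudocount of 0.1 in place of 1, V580 at 48 h was 1.07 higher and passed 2-fold. V580 and AM580 did not differ past the threshold in Cyp11a1, by 0.07 (95% interval -0.10 to 0.24, adjusted p 0.610) at 24 h and 0.16 (-0.01 to 0.32, adjusted p 0.192) at 48 h. For Por the intervals were -0.13 to 0.09 at 24 h and -0.15 to 0.07 at 48 h.

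Por was at 22.2 and 23.0 FPKM in Con at 48 h, 21.2 and 23.2 with Vc, 29.7 and 29.4 with AM580 and 27.7 and 29.9 with V580. Its rise was 0.37 with AM580 (SE 0.0522, adjusted p 2.94e-05) and 0.33 with V580 (adjusted p 7.78e-05), after 0.18 and 0.16 at 24 h. Star at 48 h was at 1.26 and 1.11 FPKM in Con, 1.87 and 1.60 with AM580 and 1.65 and 1.72 with V580 (0.32, adjusted p 0.00310, and 0.30, adjusted p 0.00553), and did not pass at 24 h. Fdx1 at 48 h was at 4.36 and 4.44 FPKM with AM580 and 5.36 and 5.94 with V580, and so was higher in V580 (0.30, 95% interval 0.17 to 0.43, adjusted p 0.00314) while AM580 and Con (4.25 and 4.65) overlapped. At 24 h Fdx1 was at 4.51 and 4.57 FPKM in Con, 5.60 and 5.27 with AM580 and 6.04 and 5.78 with V580. Both were then above Con (0.22, adjusted p 0.0262, and 0.32, adjusted p 0.00119), and V580 and AM580 differed by 0.10 (95% interval -0.03 to 0.23, adjusted p 0.298). With Vc alone Scarb1 at 48 h was the 1 gene past the adjusted p (0.23, adjusted p 0.0249).

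At the limit of 2-fold limma called 0 of the 6 tested members in each of the 8 comparisons, where the background was 0.0846%, 0.404%, 0.695% and 0.0658% of 10644 genes at 24 h for Vc, AM580 and V580 against Con and V580 against AM580, and 0.047%, 3.23%, 3.18% and 0.263% at 48 h. Without the limit of 2-fold the members called were 0, 3, 3 and 0 at 24 h, against 13.6%, 14.8%, 29.0% and 14.8% of genes, and 1, 3, 4 and 1 at 48 h, against 12.4%, 57.0%, 57.1% and 19.2%. Members with an unadjusted p under 0.05 numbered 1, 3, 3 and 1 at 24 h and 1, 3, 4 and 2 at 48 h. Hsd3b1 and Hsd3b6 were below the filter, at no more than 0.0310 and 0.0607 FPKM. Comparisons with Con of the same time share those libraries.

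Single cells of the V580_D6 culture showed which of these genes were present and where. Of 15412 barcodes 15315 passed the filters, with a median of 9281 UMIs (unique molecular identifiers). There was 1 sample, so no test was made, and intervals cover counting error only. Por had 10726 UMIs in 5512 cells, Fdx1 7854 in 5077, Scarb1 3916 in 2897, Fdxr 2213 in 1879 and Star 482 in 435. The enzymes were rare. Cyp11a1 had 141 UMIs in 70 cells (0.457%, exact 95% interval 0.356% to 0.577%), Cyp17a1 12 in 11, Lhcgr 3, Hsd3b1 2 and Hsd3b6 1.

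**Figure D5:**
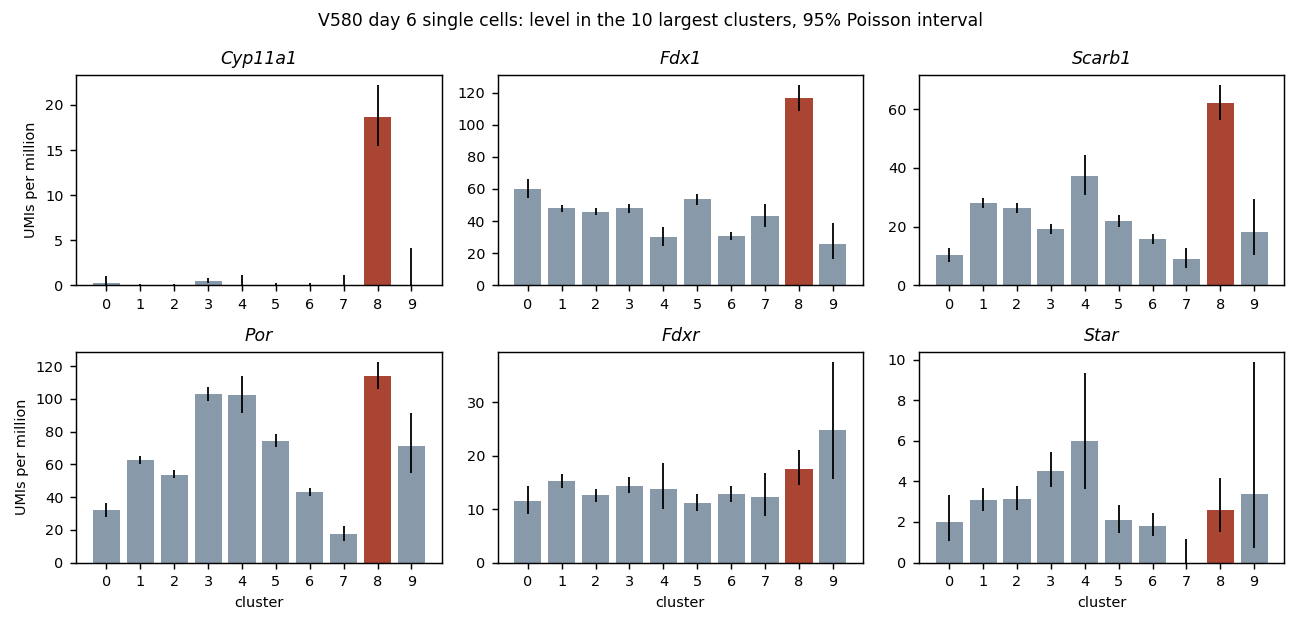
CPM (y axis, UMIs scaled to the summed UMIs of a cluster) of 6 genes in the 10 largest of 13 clusters (x axis), with exact 95% Poisson intervals; cluster 8 is in red. Cyp11a1 is at 18.6 CPM in cluster 8 and at most 0.481, in cluster 3, in the other clusters plotted.

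The few Cyp11a1 UMIs were not spread evenly. Of 13 clusters, cluster 8 (659 cells, 4.30%, median 3047 UMIs, led by Rhox9, Sct, Rhox6 and Nrk) held 122 of the 141, in 52 cells. That was 7.89% of its cells (5.95% to 10.2%) or 18.6 CPM, scaled to the UMIs of the cluster (15.5 to 22.3). Cluster 1 (2956 cells, median 12082 UMIs) had 0 (exact 95% upper limit 0.125% of its cells with a UMI, which does not limit cells that express the gene), and cluster 3 had 12 UMIs (0.481 CPM, 0.249 to 0.841). A single cell held up to 16 UMIs and 13 cells had 3 or more. Cluster 8 also held 11 of the 12 Cyp17a1 UMIs, in 10 cells, and 2 cells of the culture had both genes. It had 116 CPM of Fdx1, 114 of Por, 62.0 of Scarb1 and 17.6 of Fdxr, but 2.60 of Star, 0.153 of Hsd3b1, and no UMI of Hsd3b6 or Lhcgr. Of the 70 cells with Cyp11a1, 56 also had Fdx1 and 4 had Star. The product of the shares over all cells gives 23.2 and 1.99 cells, and 0.0503 for Cyp11a1 with Cyp17a1, without regard to cluster or depth.

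Thinned to 1000 UMIs per cell, which left out 739 cells, 10 of 634 cells of cluster 8 had Cyp11a1 (1.58%) and 1 cell elsewhere did. The thinned share with Fdx1 was 10.3% in cluster 8 and 4.46% in cluster 3, and with Por 7.41% and 9.90%. At a resolution of 1.0 a cluster of 660 cells again had 18.6 CPM of Cyp11a1. Clusters were formed from these cells' own genes, so the levels are a description. Cluster 8 was not named, since none of the markers fixed for cell types was among its leading genes. The culture had 6 UMIs of Nr5a1, 0 of Insl3, the hormone of Leydig and theca cells, 0 of Fshr and 0 of Hsd17b3, each 0 allowing up to 0.0196% of cells with a UMI, not of cells expressing the gene, and 1 of Cyp19a1. Foxl2 was in 1.63% of cells.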

How the data were processed

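The authors deposited whole-number read counts per gene for the 8 stage libraries (Hisat2 to mm10, featureCounts), FPKM per gene for the 31 culture and E12.5_GC libraries (the tool is not given in the sources used here) and UMI counts per cell from Cell Ranger for the V580_D6 culture. The processing notes of the submitters name RSEM, HISAT2, featureCounts, Trim Galore, SAMtools and FastQC. Another table had 10 value columns that matched no sample and were not used.

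Stage counts were scaled by TMM and fitted with edgeR 4.0.16 (quasi-likelihood test, all stages in 1 fit, called at an adjusted p below 0.05) in R 4.3.3. FPKM were tested with limma 3.58.1 on log2(FPKM + 1), for genes at 1 FPKM or more in at least 3 (days) or 2 (24 h and 48 h) libraries, and called at an adjusted p below 0.05 and at least 2-fold. DESeq2 1.42.0, no filter, other pseudocounts and scalings, a replicate block, removal of a trend on exon length, fits of the compared groups alone and leaving out each library were the alternatives. The tests were tried on simulated data. Barcodes under 200 genes or over 40% of mitochondrial UMIs were dropped and the rest clustered with scanpy 1.11.5 and leidenalg 0.10.2 (resolution 0.5), and doublets were not removed. Positions and coding sequences are from GENCODE on GRCm38 and promoters from RefSeq on GRCm38.p6.

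The 10 genes, the gene lists and the tests were chosen with earlier results of these data known. All 10 members were named, with the 3 genes of highest Pearson correlation to each and the 3 called list genes of largest change in each direction, and the Mc2r counts, Lhx9, the oocyte genes, Amh, Gata4 from day 4 to day 10 and the marker genes were added after their values were seen. Some genes that this rule names are not reported here. The labels do not say that libraries came from separate animals or cultures, so p-values measure only the spread between these samples. Intervals cover counting error only in the single-cell data. Libraries of the same replicate number did not deviate together among the stages (r between -0.07 and 0.12), and of the day comparisons only V580_D4 and E12.5_GC had all 3 pairs above 0.1 (0.115, 0.295 and 0.344).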

Additional observations from a re-analysis of the deposited data

Results flagged for a closer look

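The effect of AM580 on Star differed between the times. Against Con of the same time it was -0.11 on the log2(FPKM + 1) scale at 24 h and 0.32 at 48 h, and the difference of 0.43 (SE 0.113) passed the interaction test of limma (adjusted p 0.00859). Of all 10644 genes, 35.0% passed that interaction for AM580, 33.9% for V580 and 2.90% for Vc. For V580 the difference in Star was 0.26 (adjusted p 0.0893) and for Vc -0.01. No other of the 6 tested members passed it with any treatment. Star itself was at 2.55 and 2.11 FPKM in Con at 24 h and 1.26 and 1.11 at 48 h, against 2.15 and 2.01, and 1.87 and 1.60, with AM580.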

How the results depend on the processing

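Among values for single genes, 363 of the stages kept direction and call, 24 lost a call, 10 gained one and 3 turned, against 508, 2, 30 and 2 for FPKM. Those that turned were near 0: Hsd3b6 from E12.5 to E13.5 with the replicate block (0.0077) and when 1 library was left out (-0.0817 to 0.1004), Scarb1 on day 4 (-0.1086 to 0.0399) and Por on day 6 (-0.2335 to 0.0309) when 1 library was left out, above 0 only without E12.5_GC_2. With a limit of 2-fold the stage calls fell to 2785, 4285, 5339 and 4924 genes, and to 3 and 5 members in the fetal steps. With no fold limit the FPKM calls were 8238, 7718, 7270, 8001 and 7423 genes for the days, 1443, 1580, 3086 and 1570 at 24 h and 1324, 6063, 6078 and 2046 at 48 h, with, Hsd3b1 and Hsd3b6 included, 5 members on day 6, 7 on day 8, 4 from day 4 to day 10, 3 for AM580 and V580 at 24 h, and 1, 3, 4 and 1 at 48 h. A pseudocount of 0.1 gave 42, 124, 219 and 53 genes at 24 h and 41, 664, 670 and 83 at 48 h, with 1 member, Cyp11a1, for V580 at 48 h.

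Leaving out 1 library gave 5332 to 5968 genes and 4 to 5 members from E12.5 to E13.5, 7251 to 9238 and 6 to 8 from E13.5 to E16.5, 7146 to 9626 and 7 to 9 from E16.5 to P6w, and 6600 to 6982 and 8 to 9 from E12.5 to P6w. For days 4, 6, 8 and 10 it gave 2116 to 2318, 1507 to 1758, 1264 to 1502 and 1674 to 1900 genes and 1 to 4, 1 to 3, 1 to 4 and 3 to 5 members. These members include Hsd3b1 and Hsd3b6 wherever that pair passed the filter, which it did only through E12.5_GC. At 24 h it gave 9 to 10, 45 to 47, 76 to 79 and 7 to 9 genes, and at 48 h 4 to 8, 337 to 349, 339 to 346 and 26 to 31.

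With the replicate number as a block the stages had 7619, 8845, 9209 and 8722 genes and 6, 8, 10 and 9 members called, those gained being Scarb1 from E12.5 to E13.5 (0.29, adjusted p 0.0409), Por from E16.5 to P6w (0.29, adjusted p 0.0423) and Hsd3b6 from E12.5 to P6w (-1.57, adjusted p 0.0348). The block changed no call of a member in the FPKM data. Vc and Con at 24 h had deviations that ran opposite (r -0.42), and their crossed pairing, chosen after seeing the data, gave 9 genes where the uncrossed fit gave 9. Hsd3b6 from E12.5 to P6w was also called with no filter (adjusted p 3.71e-12) and with only those stages fitted (0.0226), but not with DESeq2 (0.451). With 2 libraries per stage the replicate spread is poorly known, and fold changes followed exon length across genes in the fetal steps (Spearman rho -0.494 and 0.335).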
